A study of Mus musculus with 6 samples.

Results

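The genes described here are the 10 epidermal barrier lipid genes *Abca12*, *Alox12b*, *Aloxe3*, *Cers3*, *Elovl4*, *Sdr9c7*, *Pnpla1*, *Lipk*, *Lipm* and *Lipn*, chosen by name from the 55367 gene names of a keratinocyte count table. They belong to lipid transport, ceramide synthesis, linoleate oxidation and the epidermal acid lipase family. All 10 had enough reads to be among the 14916 genes tested. RNA was sequenced from primary keratinocytes isolated from the skin of mouse pups that carried the genotype *Ppp1r13l* flox/flox;Cre+ERT on a mixed background of C57BL/6 and 129/Sv. *Ppp1r13l* encodes iASPP, and the Cre recombinase, which is active only with tamoxifen, was expressed from the *Rosa26* locus in all cell types. In each of 3 batches the cells were plated in low-calcium medium and divided, and after 24 h the medium was replaced with or without tamoxifen, which gave 3 iASPP KO and 3 iASPP WT cultures. Both groups carried the floxed alleles and the recombinase, and no culture received tamoxifen without the floxed alleles, so an effect of the drug itself and of iASPP loss cannot be told apart. Low calcium keeps keratinocytes largely in a basal, dividing state, so these cultures do not model a formed barrier.

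The barrier of the epidermis is built in its uppermost living layers. There keratinocytes elongate fatty acids to ultra-long chains, join them to sphingoid bases as ceramides and esterify the chain end with linoleate to form acylceramides. Acylceramides are glucosylated and packed into lamellar bodies, linoleate is oxidised in steps, and the lipids are attached to the cornified envelope. Loss of any of several genes of this route causes congenital ichthyosis, a scaling skin disorder with a leaky barrier.

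The 6 libraries held 20202517 to 25157117 counts, so that 3 counts equal 0.119 to 0.149 per 1000000 counts of these totals. Levels in CPM are counts per 1000000 of a library's counts in tested genes, after multiplying that total by a TMM scaling factor. The factors ran from 0.916 to 1.11, so the floors of 3 counts are on a slightly different scale from the levels. These floors cover counting error only. The targeted gene *Ppp1r13l* had 320 reads in iASPP KO against 697 in iASPP WT in batch 1, 395 against 1100 in batch 2 and 139 against 472 in batch 3, lower in iASPP KO in each. Recombination removes part of the gene, and reads from the rest were counted too. The keratinocyte label was matched by the 10 basal layer markers, among them *Krt5* and *Krt14*, whose levels summed to 25723 to 32007 CPM in each culture. Batch 3 stood apart from the other batches. Its summed suprabasal and granular layer markers (17 genes) were 3003 CPM in its iASPP KO culture and 3202 CPM in its iASPP WT culture, against 7171 to 11986 in the other 4 cultures. Its summed fibroblast markers (6 genes, all detected) were 454 and 669 CPM, against 33.7 to 51.5 in the others, and its leukocyte markers (6 genes, with the T cell marker *Cd3e* at 0 in every library) were 71.0 and 55.5 CPM, against 13.6 to 31.7. The part of these cells in the results below was not tested.

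Promoter sequence is shown for the 2 genes that rose significantly, *Abca12* and *Cers3*, and for *Lipn*, which had the largest fitted fold change of the 10. Each is the 250 bases before the transcription start in RefSeq on GRCm38.p6, written 5′ to 3′ on the gene's strand, at chr1:71414911-71415160 (minus strand) for *Abca12*, chr7:66743254-66743503 (plus) for *Cers3* and chr19:34067108-34067357 (plus) for *Lipn*. Capitals mark a match to the AP1 element TGANTCA.
Abca12: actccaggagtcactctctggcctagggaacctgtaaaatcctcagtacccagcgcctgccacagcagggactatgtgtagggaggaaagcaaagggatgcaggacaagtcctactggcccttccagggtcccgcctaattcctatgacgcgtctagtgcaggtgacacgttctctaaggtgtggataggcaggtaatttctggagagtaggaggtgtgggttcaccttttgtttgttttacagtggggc
Cers3: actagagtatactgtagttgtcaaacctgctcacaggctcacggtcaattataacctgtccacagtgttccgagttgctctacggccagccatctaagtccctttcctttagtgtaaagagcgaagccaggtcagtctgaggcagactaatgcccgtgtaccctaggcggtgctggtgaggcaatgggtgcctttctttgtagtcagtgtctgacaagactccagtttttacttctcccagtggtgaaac
Lipn: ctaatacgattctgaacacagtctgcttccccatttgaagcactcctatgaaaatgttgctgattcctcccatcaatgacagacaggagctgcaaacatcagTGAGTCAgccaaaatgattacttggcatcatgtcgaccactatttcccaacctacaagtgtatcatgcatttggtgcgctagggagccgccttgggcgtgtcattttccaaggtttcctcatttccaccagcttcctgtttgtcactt

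Promoters were at hand for 8 of the 10 genes, all but *Aloxe3* and *Lipk*, and 5 short motifs were searched on both strands. The AP1 element TGANTCA was found in 1 of the 8, as TGAGTCA at 148 to 142 bases before the start of *Lipn*, while 6.87% of all 27025 promoters of this length held it. The cyclic AMP response element TGACGTCA and the grainyhead core AACNNGTT were in none of the 8, against 1.62% and 3.63% of all promoters. A TATAAA box lay 42 to 37 bases before the start of *Sdr9c7* (13.0% of all promoters). CCAAT, or its reverse complement, was in the promoters of *Pnpla1* and *Lipm* (34.5% of all). These motifs do not overlap each other in the 8 promoters, and a match is a description of the letters only.

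Of the 10 genes, 2 were expressed significantly more in iASPP KO, *Abca12* and *Cers3*, and 0 significantly less (adjusted p under 0.05). These p-values come from edgeR's quasi-likelihood test on the counts, with terms for batch and for condition, and were adjusted by the Benjamini-Hochberg method over all tested genes. Of all tested genes 2.17% were significantly higher and 1.95% lower. At an unadjusted p under 0.05, 5 were higher and 0 lower, the further 3 being *Elovl4*, *Lipm* and *Lipn*, against 8.66% and 8.09% of all tested genes. The median log2 fold change was 0.50 over the 10 genes (0.28 without batch 1) and 0.01 over all tested genes, and 9 of the 10 were positive, against 50.6% of all. Expression was higher in iASPP KO in all 3 batches for 6 genes, the same 5 and *Aloxe3*, against 19.5% of all tested genes, and lower in all 3 for 0, against 19.7%. In bulk RNA, fewer cells of a type and less RNA per cell cannot be told apart, and this holds for each of these genes. Levels differed between batches, and iASPP KO and iASPP WT cultures overlapped for every one of the 10 when batches were ignored. Over all tested genes the KO cultures all lay above the WT cultures for 5.26% and all below for 5.46%. Without batch 3 the number significantly higher was 8, all but *Aloxe3* and *Lipk* (5.2% of all genes tested in that fit). It was 0 without batch 1 and without batch 2 (1.09% and 1.14% of all genes). DESeq2 (3.98% of all), DESeq2's size factors (2.47%), robust dispersion (2.57%) and no filter (1.95%) each gave 5, adding *Elovl4*, *Lipm* and *Lipn*. Upper-quartile scaling (2.44%) and a minimum of 10 counts in every library (3.09%) gave 4. Without the batch term it was also 0, with 0 at an unadjusted p under 0.05.

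**Figure D1:**
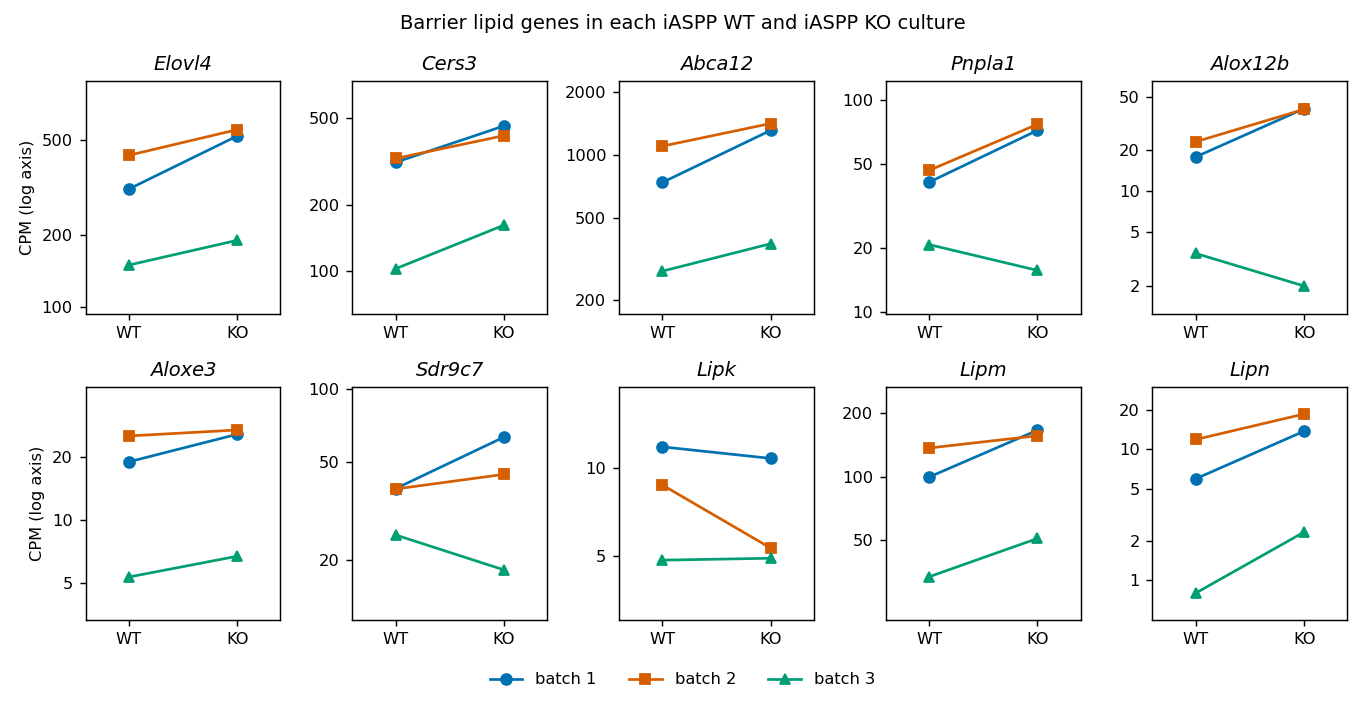
Level of each barrier lipid gene in CPM (log axis, a separate scale for each gene) in the 3 iASPP WT and 3 iASPP KO cultures, with lines joining the cultures of one batch. For *Abca12*, *Cers3*, *Elovl4*, *Lipm*, *Lipn* and *Aloxe3* all 3 lines climb towards KO, for *Alox12b*, *Pnpla1* and *Sdr9c7* the line of batch 3 descends, and for *Lipk* 2 of 3 descend; batch 3 lies lowest in both conditions for every gene.

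*Elovl4* (chromosome 9, 83778692 to 83806277, GRCm38, minus strand) encodes the elongase that makes the ultra-long fatty acids of barrier ceramides. In batches 1, 2 and 3 it was measured at 521, 554 and 190.0 CPM in iASPP KO and at 312, 432 and 149.6 CPM in iASPP WT. Each iASPP KO culture lay above its own batch's iASPP WT culture. The log2 fold change was 0.48 (standard error 0.12, 95% interval 0.21 to 0.75), just short of the threshold at a Benjamini-Hochberg adjusted p of 0.0547 in edgeR. It passed under all 6 alternatives that kept the batch term and all batches, where the adjusted p ran from 0.00339 to 0.0463 (edgeR or DESeq2, Benjamini-Hochberg). The adjusted p was 0.373 without batch 1, 0.171 without batch 2 and 0.00021 without batch 3 in edgeR.

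*Cers3* (chromosome 7, 66743504 to 66823691, plus strand) encodes the ceramide synthase that joins those fatty acids to a sphingoid base. Its levels were 458, 414 and 162 CPM in iASPP KO and 313, 326 and 103 CPM in iASPP WT, or 345 ± 159.7 against 247 ± 125 (SD, n = 3 each). The within-batch log2 differences were 0.55, 0.34 and 0.66, so the KO culture was higher in 3 of 3 batches. *Cers3* rose by 0.52 on the log2 scale (standard error 0.11, edgeR, Benjamini-Hochberg adjusted p = 0.0334). Its adjusted p was 0.149 without batch 1, 0.0982 without batch 2 and 0.00482 without batch 3 by the same edgeR test.

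*Abca12* (chromosome 1, 71242276 to 71414910, minus strand) encodes the transporter that loads glucosylceramide into lamellar bodies, and its loss causes harlequin ichthyosis. In counts it was the most abundant of the 10, with 29432, 31506 and 8806 reads in iASPP KO and 15728, 26846 and 6200 in iASPP WT. These correspond to 1311, 1414 and 374 CPM in iASPP KO and 737, 1101 and 276 CPM in iASPP WT. The KO culture was higher in every batch, by 1.78-fold in batch 1, 1.28-fold in batch 2 and 1.35-fold in batch 3. *Abca12* rose by 0.54 on the log2 scale (standard error 0.12, edgeR, Benjamini-Hochberg adjusted p = 0.0366). The adjusted p was 0.270 without batch 1, 0.0982 without batch 2 and 1.3e-05 without batch 3 by the same edgeR test.

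*Pnpla1* (chromosome 17, 28858411 to 28890309, plus strand) encodes the transacylase that places linoleate on the ceramide to complete the acylceramide. It was at 71.9, 76.8 and 15.7 CPM in iASPP KO and at 40.9, 46.6 and 20.8 CPM in iASPP WT. Expression was thus higher in iASPP KO in batches 1 and 2 (log2 differences 0.81 and 0.72) and lower in batch 3 (−0.40). Over all batches the log2 fold change of 0.40 had a 95% interval of −0.08 to 0.88 (edgeR, Benjamini-Hochberg adjusted p = 0.408), and it was 0.18 without batch 1, 0.22 without batch 2 and 0.77 without batch 3. The adjusted p in these fits was 0.894, 0.861 and 9.3e-06 by the same edgeR test. The antisense gene *Pnpla1os* overlaps this locus, with 1 to 27 reads per library, and counting was by strand.

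The linoleate of acylceramide is oxidised in sequence by the products of *Alox12b*, *Aloxe3* and *Sdr9c7*. *Alox12b* (chromosome 11, 69156989 to 69169792, plus strand) encodes 12R-lipoxygenase. Its counts were 914, 897 and 47 in iASPP KO and 383, 566 and 78 in iASPP WT, or 40.7, 40.3 and 2.0 CPM against 17.9, 23.2 and 3.47. It therefore had higher levels in iASPP KO in batches 1 and 2, by 2.26-fold and 1.73-fold, and a lower level in batch 3, at 0.585-fold. The log2 fold change over all batches was 0.54, as large as that of *Abca12*, but its standard error was 0.31 and it did not pass (edgeR, Benjamini-Hochberg adjusted p = 0.440). It was 0.13 without batch 1, 0.34 without batch 2 and 0.99 without batch 3, with an adjusted p of 0.959, 0.862 and 3.9e-06 by the same edgeR test.

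*Aloxe3* (chromosome 11, 69125896 to 69149115, plus strand), the neighbour of *Alox12b*, encodes the lipoxygenase that turns the first product into an epoxy alcohol. Its levels were 25.6, 26.8 and 6.71 CPM in iASPP KO and 18.9, 25.1 and 5.34 CPM in iASPP WT. The log2 differences were 0.43, 0.09 and 0.32, all above 0, with a log2 fold change of 0.28 and a 95% interval of −0.12 to 0.69 (edgeR, Benjamini-Hochberg adjusted p = 0.503). *Sdr9c7* (chromosome 10, 127898518 to 127911761, plus strand) encodes the dehydrogenase that acts on this epoxy alcohol. It was at 63.3, 44.6 and 18.1 CPM in iASPP KO and 39.0, 38.8 and 25.2 CPM in iASPP WT, which is higher in iASPP KO in batches 1 and 2 and lower in batch 3. The interval of its log2 fold change of 0.15 ran from −0.30 to 0.60 (edgeR, Benjamini-Hochberg adjusted p = 0.789). Its sign turned without batch 1, at −0.13, and it was 0.13 without batch 2 and 0.45 without batch 3 (adjusted p = 0.931, 0.940 and 0.0458 by the same edgeR test).

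*Lipk*, *Lipn* and *Lipm* encode acid lipases of the differentiated epidermis and lie side by side on the plus strand of chromosome 19, between 34008290 and 34122687. *Lipm* was the most abundant, at 166, 156 and 50.9 CPM in iASPP KO and 99.6, 137 and 33.5 CPM in iASPP WT, higher in iASPP KO in every batch. Its log2 fold change was 0.51 with a 95% interval of 0.22 to 0.80 (edgeR, Benjamini-Hochberg adjusted p = 0.0635). The span of *Lipm* is overlapped by *Ankrd22* on the minus strand, which had 870 to 2425 reads per library.

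*Lipn*, mutated in a late-onset form of human ichthyosis, had few reads, with 308, 413 and 55 in iASPP KO and 127, 289 and 18 in iASPP WT. Scaled, these were 13.7, 18.5 and 2.34 CPM against 5.95, 11.9 and 0.802, and the KO culture was again higher in each batch. The log2 fold change of 1.07 had a 95% interval of 0.47 to 1.67, wide next to that of *Lipm*, and did not pass (edgeR, Benjamini-Hochberg adjusted p = 0.0564). *Lipm* and *Lipn* each passed in 5 of the 6 alternatives that kept the batch term and all batches, and of the fits with a batch left out only in that without batch 3.

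*Lipk* was the 1 gene of the 10 with a negative log2 fold change, −0.28 with an interval of −0.87 to 0.32 (edgeR, Benjamini-Hochberg adjusted p = 0.692). Its levels were 10.8, 5.34 and 4.93 CPM in iASPP KO and 11.9, 8.78 and 4.85 CPM in iASPP WT. The iASPP KO culture was thus lower in batches 1 and 2 and nearly level in batch 3. The 3 lipase genes of this cluster did not all move alike within a batch, and the difference between *Lipk* and its neighbours was not tested. Beyond the 10, the 14 tested genes that flank them included 0 that were significantly higher in iASPP KO and 2 that were lower (by the same edgeR test). Of the 42-base windows of a gene's longest transcript at most 1.06% occurred unchanged in another gene. That was *Pnpla1*, with windows shared with *AC160336.1*, *BC035947*, *Gm10388* and *Vmn1r68*, and for *Lipm* 0.0693% were shared with *Lipa*. Only exact matches in 1 transcript per gene were sought, so this does not measure how far reads of close relatives were confused.

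**Figure D2:**
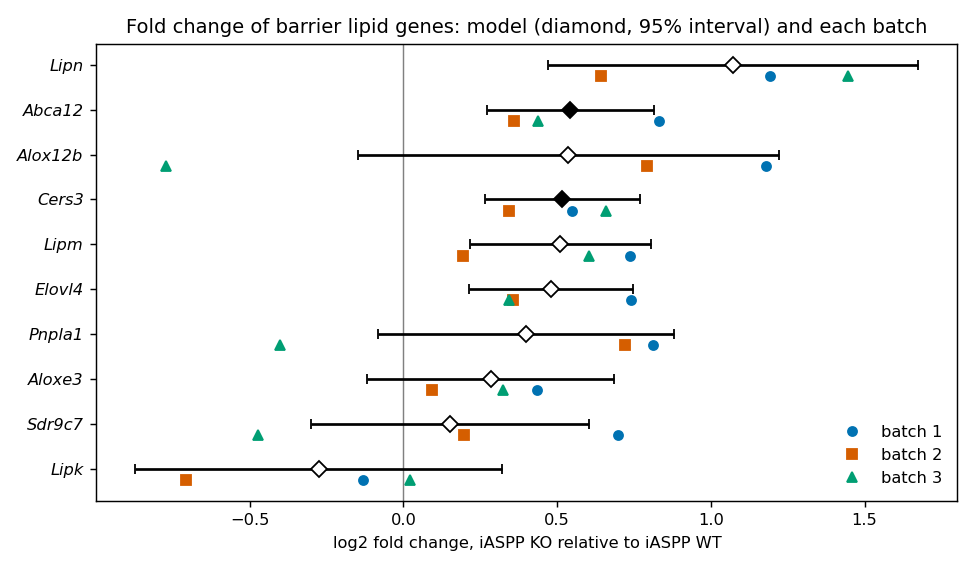
Log2 fold change in iASPP KO over iASPP WT for each gene. Diamonds give the edgeR model with batch and condition and bars its 95% interval (filled where the adjusted p is under 0.05), and coloured symbols give the log2 difference within each batch. *Abca12* and *Cers3* are filled, the intervals of *Elovl4*, *Lipm* and *Lipn* also lie above 0, and the green symbols of *Alox12b*, *Pnpla1* and *Sdr9c7* lie at −0.77, −0.40 and −0.47.

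Levels were compared per length as RPKM, which is CPM per kilobase of all exons counted for a gene. By this measure the first 4 genes kept their order in all cultures and the other 6 did not. The counted exons held 14808 bases for *Abca12* and 3256 for *Cers3*, against 9137 and 3250 in their longest transcripts. The order of these genes by transcript length was not computed and could differ. *Elovl4* had the highest level, with a mean of 118.9 RPKM over the 6 cultures, followed by *Cers3* (90.95), *Abca12* (58.7) and *Lipm* (30.7), and each was above the next in 6 of 6 libraries. Below them came *Sdr9c7* at 12.6, *Pnpla1* at 9.40 and *Alox12b* at 8.75 RPKM. These neighbours were not separated in every library, since *Sdr9c7* was above *Pnpla1* in 5 and *Pnpla1* above *Alox12b* in 4. *Lipn* (4.71), *Lipk* (3.53) and *Aloxe3* (2.83) were lowest, and *Lipn* exceeded *Lipk* in 3 of 6. *Alox12b* ranged from place 5 to place 10, lowest of all in the iASPP KO culture of batch 3. Among the 14916 tested genes *Elovl4* ranked 370 by mean RPKM and *Aloxe3* 8565. The first 3 genes together made up 77.5% to 82.5% of the RPKM of all 10, and reads of the 10 were 0.0692% to 0.260% of a library's counts.

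In mean level each of 7 of the genes was the most abundant among the listed genes of its family. The lists were fixed and need not hold every gene of a family. *Cers3* gave 46.0% to 75.4% of the summed RPKM of the 6 ceramide synthase genes in a culture, and *Elovl4* 39.9% to 61.7% of the 7 elongase genes. *Abca12* held 53.9% to 79.3% of the 13 listed ABCA transporter genes and *Lipm* 47.4% to 75.5% of the 10 listed acid lipase genes. *Alox12b* was first of 7 lipoxygenase genes in mean level, with 32.8% to 75.6%, and *Aloxe3* followed with 18.1% to 41.9%. In the iASPP KO culture of batch 3 their order was turned. *Pnpla1* held the least dominant place, at 17.9% to 43.5% of 7 patatin-like phospholipase genes, and in both cultures of batch 3 it was below *Pnpla6* and *Pnpla8*. *Sdr9c7* held the most, at 81.7% to 94.3% of the 7 genes of its group of short-chain dehydrogenases, next to *Rdh1*. Of the 47 other listed genes of these families 28 were tested, 0 passed in either direction, and their median log2 fold change was 0.03. The 2 with the smallest p were *Cers5* (−0.30, adjusted p = 0.256) and *Abca3* (0.32, adjusted p = 0.281) in the same edgeR test.

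**Figure D3:**
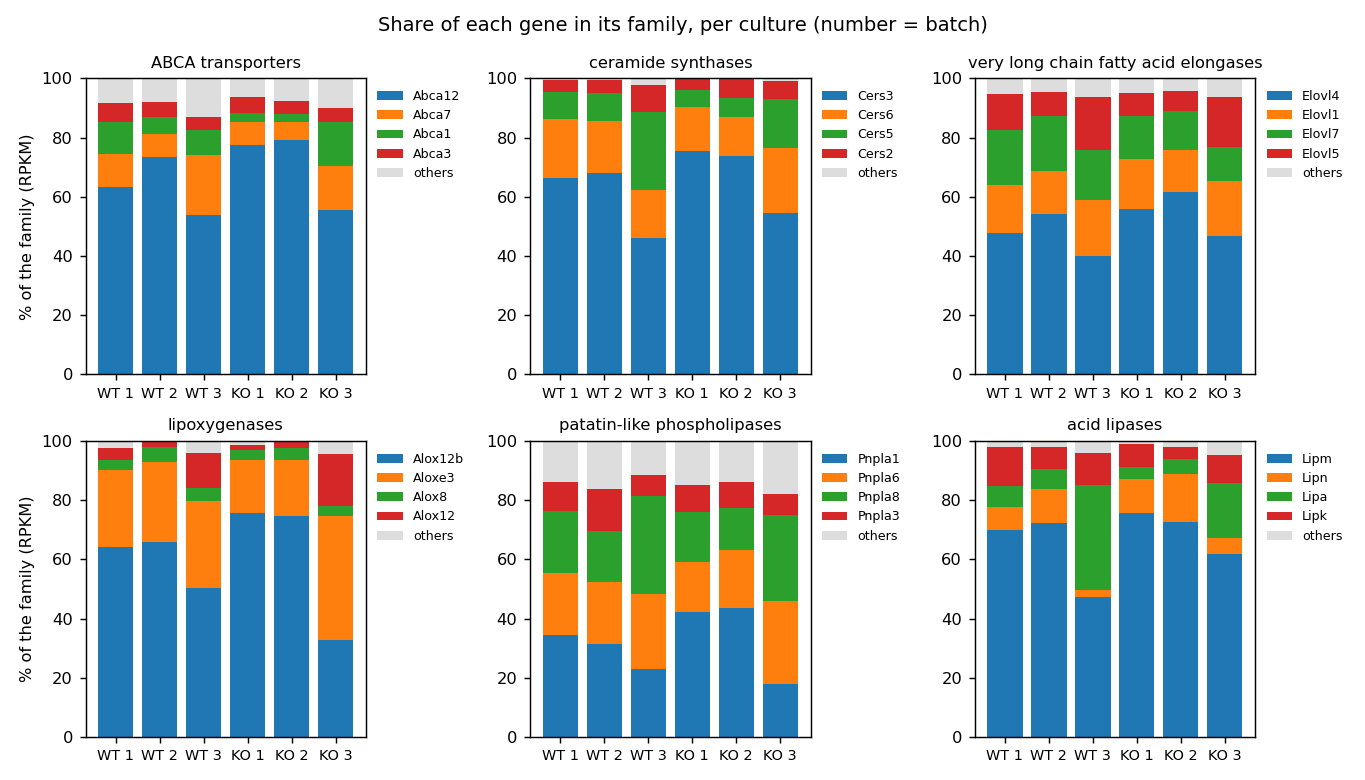
Share of each gene in the summed RPKM of the listed genes of its family (percent, 0 to 100) in the 3 iASPP WT and 3 iASPP KO cultures. The 4 most abundant genes of a family are coloured and the other listed genes are in grey. The blue bar is *Abca12*, *Cers3*, *Elovl4*, *Alox12b*, *Pnpla1* or *Lipm*, and in batch 3 it is shorter than in the other batches of the same condition in all 6 panels.

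For all 10 genes the estimated difference between batches 3 and 1 was larger than that between iASPP KO and iASPP WT. In batch 3 the log2 level was lower than in batch 1 for all 10 genes, with a median difference of −1.59, against 0.00 over all tested genes. The fall was 2.31-fold for *Lipk*, 2.31-fold for *Sdr9c7*, 3.07-fold for *Abca12*, 6.37-fold for *Lipn* and 9.79-fold for *Alox12b*. A test of the batch term, chosen after the values were seen, passed for 9 of the 10 in edgeR, all but *Lipk* with a Benjamini-Hochberg adjusted p of 0.0668 in edgeR. Of all tested genes 15.8% passed, and 9.35% passed with batch 3 below batch 1. Batches 1 and 2 were nearer to each other, with a median difference of 0.17 over the 10 genes. The suprabasal markers were low and the fibroblast and leukocyte markers high in the same cultures of batch 3, as given above, and their part in this difference was not tested. Within iASPP KO and within iASPP WT the lower level of batch 3 held for each of the 10 genes.

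**Figure D4:**
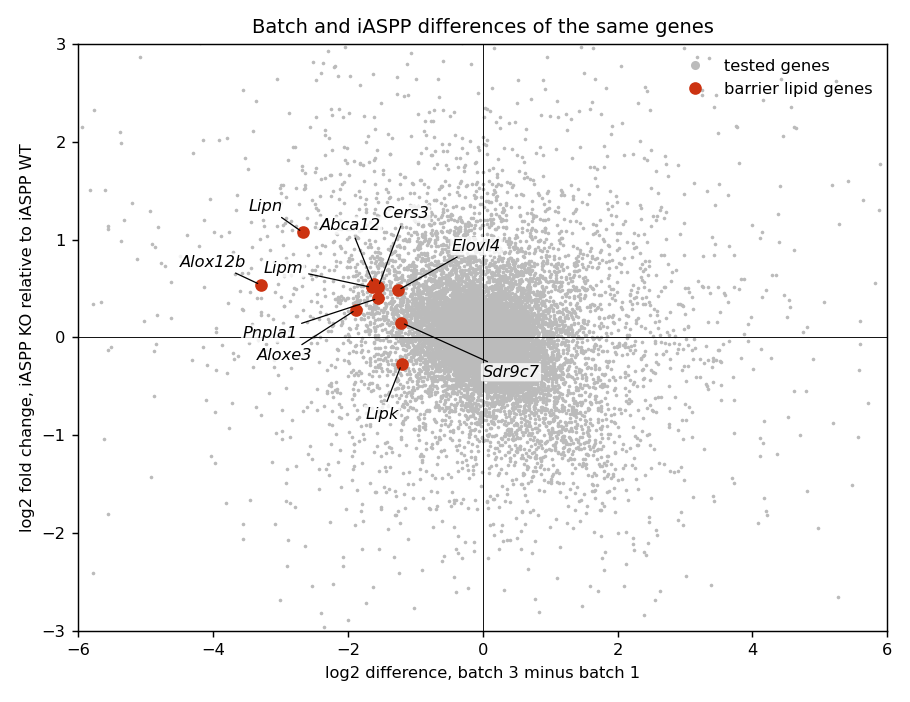
Each tested gene (grey) by its log2 difference between batch 3 and batch 1 (horizontal axis) and its log2 fold change in iASPP KO over iASPP WT (vertical axis), both from one model, with the 10 barrier lipid genes in red. All 10 lie left of 0 and 9 lie above 0; 116 grey genes outside the axes are not drawn.

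Over the 6 cultures the 10 genes had like profiles, with batch 3 as a low point that all of them share. Pearson correlations of log2 CPM between pairs ran from 0.513 to 0.999 with a median of 0.949 over 45 pairs, and 30 pairs were above 0.9. *Abca12* and *Elovl4* were the closest pair, and *Lipk* the least like the others, with a median correlation of 0.609. As a description of the same 6 cultures in 3 batches, 3.24% of all tested genes correlated above 0.95 with the mean profile of the 10. Of the 10 themselves 8 did, but they are part of that mean, which raises their correlations. Their number therefore cannot be set against the share of all genes. The genes closest to that mean were *Ube4a*, *Tmem170b*, *Spint1*, *Vezt* and *Bmp2k* (0.997 to 0.999). A correlation leaves out the size of a difference. From batch 1 to batch 3 these genes fell 1.22-fold (*Vezt*) to 3.06-fold (*Tmem170b*), and the 10 genes 2.31-fold to 9.79-fold. Closest to *Abca12* were *Elovl4*, *Btbd3* and *Mfsd11*, to *Elovl4* *Cltc*, *Abca12* and *Mfsd5*, and to *Cers3* *Adgrf4*, *Esrp2* and *Atp11b*. *Alox12b* was most like *Mast4*, *Grhl3* and *Adgrf2*, and *Aloxe3* most like *Ino80d*, *Serpinb6c* and *Srrm2*. *Pnpla1* was nearest to *Abtb2*, *Gsdma* and *Cbr3*. For *Sdr9c7* they were *Sec11c*, *Mir27a* and *Gm12037*, and for *Lipk* *Paf1*, *K230015D01Rik* and *Tut1*. The profiles of *Mir27a* and *Gm12037* rest on few reads, with 3 to 35 and 1 to 39 per library. *Lipm* was closest to *Abhd6*, *Nipal2* and *Cyp4f39*, and *Lipn* was close to *Rhof* and *Itgb7*. All of these correlations were 0.988 or above, over 6 cultures.

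Other genes of the ceramide route were compared from lists. Of 21 genes of ceramide and acylceramide synthesis 19 were tested, 2 rose, 0 fell and the median log2 fold change was 0.10. The 2 were *Degs2*, the hydroxylase that makes phytoceramide, and *Cyp4f39*, the hydroxylase that prepares the ultra-long fatty acid for linoleate. *Degs2* was at 53.0, 77.5 and 28.6 CPM in iASPP KO and 21.3, 37.0 and 9.0 CPM in iASPP WT, a log2 fold change of 1.34 (standard error 0.16, edgeR, Benjamini-Hochberg adjusted p = 0.00218). This point estimate lay above those of the 10 barrier lipid genes, a difference that was not tested. *Cyp4f39* was at 259, 252 and 49.7 CPM against 132, 182 and 32.5, with a log2 fold change of 0.68 (edgeR, Benjamini-Hochberg adjusted p = 0.0181). Both were higher in iASPP KO in each batch, and both, like the 10 genes, were lowest in batch 3.

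Of 18 genes of ceramide processing and turnover, all tested, 1 rose and 0 fell, with a median of 0.10. *Psap*, the precursor of the saposins, small proteins that assist lysosomal sphingolipid breakdown, did not pass, at a log2 fold change of 0.81 (edgeR, Benjamini-Hochberg adjusted p = 0.0724). Of 16 other ichthyosis and lamellar body genes 15 were tested, 2 rose and 0 fell, with a median of 0.24. They were *Tgm1*, which crosslinks the cornified envelope, at 0.58 (adjusted p = 0.0292), and *Ebp*, an isomerase of cholesterol synthesis, at 0.54 (adjusted p = 0.0365), both by the same edgeR test. Over these lists and the family relatives together 5 genes rose, 1 without batch 1, 3 without batch 2 and 13 without batch 3.

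The layer markers did not move in one direction. Of 17 suprabasal and granular markers 4 rose and 3 fell, with a median log2 fold change of −0.22 (edgeR, Benjamini-Hochberg adjustment). Those that rose were *Sbsn* (0.67), *Cdsn* (1.03), the desquamation protease *Klk7* (0.70) and the transglutaminase *Tgm3* (1.45). Those that fell were the suprabasal keratin *Krt10* (−1.31), filaggrin *Flg* (−0.89) and *Flg2* (−2.16). The number that rose was 1 without batch 1, and without batch 3 there were 8 that rose and 5 that fell. With robust dispersion 2 rose and 1 fell, and without a filter 7 rose and 5 fell. Of the 10 basal markers 0 passed, all 10 had a negative log2 fold change, and the median was −0.17. The 2 with the smallest p were the laminin genes *Lamb3* (−0.40, adjusted p = 0.110) and *Lama3* (−0.35, adjusted p = 0.142) in edgeR, and 5 fell without batch 3. Of 20 differentiation transcription factors 17 were tested and 2 rose, *Hopx* at 1.12 (adjusted p = 0.00192) and *Cebpb* at 0.54 (adjusted p = 0.0389) by the same edgeR test, with a median of 0.31. The number that rose was 1 without batch 1 or batch 2 and 11 without batch 3. *Grhl3*, whose profile was among the 3 nearest to *Alox12b*, was among the 15 that did not pass.

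Markers of other cell types that could express lipid genes were compared in the same way. Of 8 sebocyte markers, with *Awat1* at 0 in every library, 4 were tested and 1 rose, the fatty acid desaturase *Scd1* at 0.58 (edgeR, Benjamini-Hochberg adjusted p = 0.0368), a gene that keratinocytes also express. *Cidea* was next at 0.70 (adjusted p = 0.255 by the same edgeR test). Summed sebocyte markers were 356 to 416 CPM in iASPP KO and 229.8 to 289 CPM in iASPP WT. Of 6 fibroblast markers 2 fell, *Col3a1* at −0.87 and *Col1a2* at −0.55, and of 6 leukocyte markers 4 were tested and 1 rose, *Csf1r* at 1.11, by the same edgeR test. *Lyz2* was next of the leukocyte markers at 0.60 (adjusted p = 0.179 in edgeR). The sebocyte and leukocyte calls were each lost without batch 1 and without batch 2. Of the fibroblast calls 1 was left without batch 1 and 0 without batch 2 or without batch 3. Summed leukocyte markers were higher in iASPP KO in each batch, at 24.7, 31.7 and 71.0 CPM against 13.6, 16.2 and 55.5. No melanocyte marker (6 tested) or endothelial marker (3 of 4 tested) passed in edgeR, the nearest being *Pmel* (−0.15) and *Tyr* (−0.20), and *Tek* (−1.28) and *Kdr* (0.87). The part of these cells in the differences of the 10 genes was not tested.

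**Figure D5:**
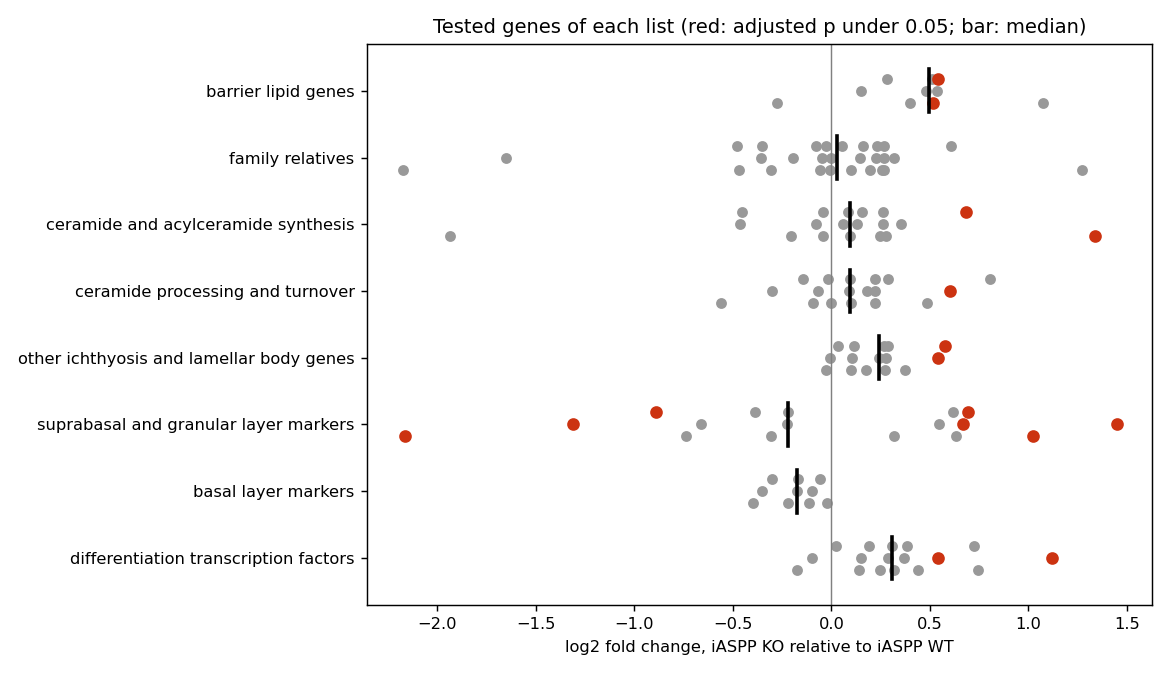
Log2 fold change in iASPP KO over iASPP WT of each tested gene (points, with vertical offsets only to separate them) for the 10 barrier lipid genes and 7 other lists, with red for an adjusted p under 0.05 and a black bar for the median. The bar of the barrier lipid genes lies at 0.50, and those of the other lists lie from −0.22 to 0.31.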

How the data were processed

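RNA of 6 primary keratinocyte cultures was sequenced as single 42-base reads after removal of ribosomal RNA. The authors removed adapters with cutadapt 2.10, aligned reads to mm10 (GRCm38) with STAR 2.7.3 and the GENCODE annotation, and deposited raw read counts per gene name from featureCounts 2.0.0, counted by strand. A deposited table of the authors' own comparison (mean level, log2 fold change, its error and p-values) was not used.

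Groups and batches came from the labels. The test was edgeR's quasi-likelihood test (edgeR 4.0.16, R 4.3.3) on genes kept by filterByExpr, with TMM scaling, terms for batch and condition, Benjamini-Hochberg adjustment and a threshold of 0.05. Intervals of 95% use the 2 residual plus 8.17 prior degrees of freedom. Within-batch log2 differences use a prior count of 2. Each batch was divided between the conditions, and same-batch cultures deviated together (correlations 0.428, 0.509 and 0.673 over 12992 genes). Nothing states that batches came from separate animals, so p-values measure only the spread between these cultures. The fit was tested on simulated counts.

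The 10 genes and the lists were chosen with earlier results of these data known. Named were all 10, *Ppp1r13l*, of each list the genes that passed (or, with fewer than 2, the 2 with the smallest p), and the nearest profiles. Some genes that this rule names are not reported here. RefSeq promoters (GRCm38.p6) and GENCODE vM21 transcripts were searched with Python 3.11.15. Alternatives were no batch term, DESeq2 1.42.0, its size factors, upper-quartile scaling, no filter or at least 10 counts in every library, robust dispersion, and each batch left out.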

Additional observations from a re-analysis of the deposited data

Results flagged for a closer look

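In 4 of the 10 genes the difference between iASPP KO and iASPP WT in batch 3 went the opposite way to that in both other batches. Over all tested genes 19.5% were higher and 19.7% lower in iASPP KO in all 3 batches. The share of all genes with batch 3 opposed to both others was not computed, so the 4 cannot be called unusual. These differences between batches were not tested, since each batch holds 1 pair of cultures. *Alox12b* had a log2 difference of −0.7728 in batch 3, against 1.18 and 0.79 in batches 1 and 2, on 47 and 78 reads in batch 3. *Sdr9c7* was at −0.4727 in batch 3, against 0.70 and 0.20. *Pnpla1* was at −0.402, against 0.81 and 0.72. *Lipk* was nearly level in batch 3, at 0.0213 on 116 and 109 reads, against −0.13 and −0.71. Batch 3 also had the lowest levels of all 10 genes and the highest summed fibroblast and leukocyte markers, and their part in these differences was not tested.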

How the results depend on the processing

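Of the 10 genes, the 2 that rose became 5 with DESeq2, with DESeq2's size factors, without a filter beyond 1 count and with robust dispersion, and 4 with upper-quartile scaling and with at least 10 counts in every library. *Abca12* and *Cers3* were among them each time. With 1 batch left out the number ran from 0 (without batch 1 or without batch 2) to 8 (without batch 3). The fit without the batch term (no replicate block) gave 0 of the 10 genes, 0 genes of the pathway lists and 0 of all genes in either direction, with 360 and 331 of all genes at an unadjusted p under 0.05. None of the 10 was significantly lower under any of these alternatives, in edgeR or DESeq2. Genes of the pathway lists that rose numbered 1 to 13 with a batch left out, against 5, and those that fell 0 to 1; 1 fell with DESeq2 and 1 without a filter. Over all genes, 624 rose and 491 fell without a filter, and 169 to 793 rose and 117 to 662 fell with a batch left out, against 323 and 291. The 1 reversed value was *Sdr9c7* without batch 1, at a log2 fold change of −0.13 (up to 0.45 with another batch left out). No scaling turned a direction or moved the median of all genes by more than 0.04. The cause of these changes was not tested. In their lowest libraries *Lipn* had 18 reads (iASPP WT, batch 3) and *Alox12b* 47 (iASPP KO, batch 3).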
